A study of Mus musculus with 6 samples.

Results

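The TRIM family was followed in RNA-seq of cultured mouse astrocytes by taking every gene of the deposited table whose symbol is Trim, a number and at most 1 letter from a to e. The rule found 68 genes of the 55357 listed. TRIM-related genes under other symbols (Pml, Mid1, Mid2, Rnf135 and the like) fall outside it and are described apart. The cells were cortical astrocytes prepared from C57BL/6 mouse embryos (E18), in dishes that were shaken before the cells were replated. In the KE group, 3 cultures carried a plasmid that expresses FLAG-tagged BRAF KE (K499E) from the CMV promoter, and RNA was taken 48 hours after transfection. The NT group was 3 nontransfected cultures, and neither an empty plasmid nor BRAF WT was given to any culture analysed here, so BRAF KE, the plasmid and the transfection cannot be told apart in any difference below. The labels do not say whether the 3 cultures of a group came from separate animals, so p-values measure the spread between these cultures, which may be technical. With 3 cultures against 3, the smallest two-sided p of an exact permutation test is 0.1, so the tests come from limma fitted across all genes.

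TRIM proteins are named for a tripartite motif, which is a RING finger, B-box zinc fingers and a coiled coil in that order. The RING finger makes many of them ubiquitin ligases, and the domain at the C terminus selects the target. Mouse TRIMs with a PRY-SPRY domain include restriction factors and sensors whose genes are induced by interferon, TIF1 TRIMs (Trim24, Trim28, Trim33 and Trim66) act in the nucleus on chromatin, NHL TRIMs bind proteins and RNA through a propeller domain, and COS-box TRIMs associate with microtubules.

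The values are DESeq2-normalized gene counts from Salmon, written here as normalized counts. A gene was tested when its mean over the 6 cultures was at least 10, and the log2FC is the KE mean minus the NT mean of log2(normalized count + 1), a scale that understates the change of low genes. A gene is called higher or lower where its Benjamini-Hochberg adjusted p over the 15280 genes tested was under 0.05. Sequencing depth, estimated from the smallest steps of the values, was 24500000 to 34100000 reads a culture and lowest in KE replicate 2. The cell makeup of the cultures differed with the group. All 19 microglia and macrophage markers that could be tested, of 20 listed, were lower in KE (median log2FC -3.31), and the list summed to 6714 to 9453 normalized counts in KE against 55665 to 66189 in NT, with Siglech at 0 in every culture. Of 10 tested astrocyte markers 7 were higher and 1 was lower in KE, with sums of 194524 to 200356 in KE and 142106 to 150693 in NT, and Gjb6 lay near 0 in all 6. Among the other lists, 7 of 8 oligodendrocyte lineage markers were lower and 1 was higher, while 2 of 7 neuron markers and 2 of 6 vascular and mesenchymal markers were higher and 2 of each were lower. In all genes tested, 25.3% were higher and 26.0% were lower. The neuron list (28.6% each way) and the vascular and mesenchymal list (33.3% each way) were near those shares. In such bulk samples fewer cells of a type and less RNA per cell cannot be told apart, and the part of these shifts in the TRIM values was not tested.

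Of the 68 TRIM genes, 45 were tested and 33 were called, 26 of them higher and 7 lower in KE. In all genes tested, 51.3% were called, 25.3% higher and 26.0% lower, against 57.8% higher and 15.6% lower among the tested TRIM genes. The median log2FC was 0.33 over the TRIM genes, from -0.73 to 2.83, and 0.0018 over all genes tested. A log2FC of at least 1 was reached by 9 called TRIM genes (8 without Trim69, which passed the filter through its KE values alone), compared with 4.74% of all genes, and none of the TRIM genes fell by 1, compared with 5.69% of all genes. The KE and NT cultures did not overlap in 36 of the 45 TRIM genes (59.9% in all genes), with all KE cultures on the upper side in 28 (30.1% in all genes). Leaving aside the interferon-inducible list described next, 15 of 31 tested TRIM genes were higher and 7 were lower, with a median of 0.21.

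**Figure D1:**
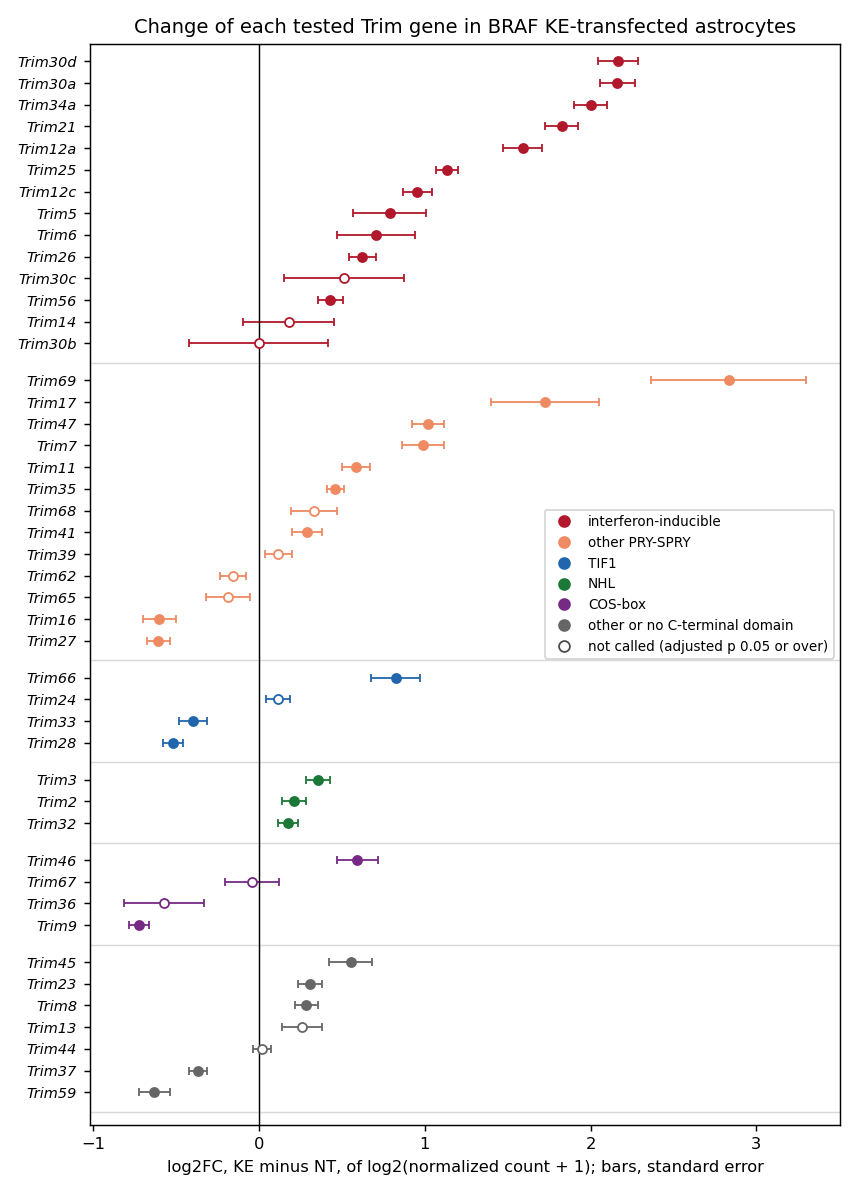
The log2FC of KE minus NT is plotted for each of the 45 tested Trim genes, grouped by list, with bars for the standard error and filled points for called genes. The interferon-inducible list reaches 2.16, Trim69, tested through its KE values alone, is at 2.83, and the lowest gene is Trim9 at -0.73.

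The interferon-inducible TRIMs had the highest median log2FC of the lists. Of 16 listed genes 14 were tested, 11 were higher and none was lower in KE, and their median log2FC was 0.87. Trim30a, Trim30d, Trim34a, Trim21, Trim12a and Trim25 each rose by a log2FC above 1. In the promoters of this list, read from 250 bases before to 50 bases from the annotated start (GRCm39, Gencode vM39), the core of the interferon-stimulated response element (ISRE), a motif of interferon-induced promoters, was searched on both strands as GAAA, any 2 bases and GAAA. It was present in 8 of the 16 genes and in 7 of the 11 that were higher, against 3.84% of 21757 promoters of protein-coding genes and 5.21% of the 3666 tested protein-coding genes that were higher in KE. None of the 15 other TRIM genes that were higher held it in these windows. The list gathers genes known to be induced by interferon and counts similar copies singly. These shares are therefore a description and give no independent support. The windows are shown because they set the sequence beside the size of the change, in the direction of the gene, with the match in capitals (TTTC on either side is the same motif read on the other strand). At most 30 bases from the start on are printed.
Trim30a: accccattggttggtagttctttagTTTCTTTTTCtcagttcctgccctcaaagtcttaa
Trim30d: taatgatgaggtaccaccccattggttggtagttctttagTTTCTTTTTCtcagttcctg
Trim34a: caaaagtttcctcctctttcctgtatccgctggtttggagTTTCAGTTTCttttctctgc
Trim21: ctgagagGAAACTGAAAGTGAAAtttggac
Trim12c: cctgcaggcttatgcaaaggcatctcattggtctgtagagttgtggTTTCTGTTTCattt
Trim5: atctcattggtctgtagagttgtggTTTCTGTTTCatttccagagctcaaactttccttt
Trim26: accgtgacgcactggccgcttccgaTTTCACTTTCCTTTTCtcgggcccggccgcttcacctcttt
Trim14: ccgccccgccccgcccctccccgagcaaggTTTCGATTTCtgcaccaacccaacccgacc

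These windows lie at chr7:104114402-104114461 (Trim30a), chr7:104157078-104157137 (Trim30d), chr7:103893634-103893693 (Trim34a), chr7:102214654-102214683 (Trim21), chr7:104002572-104002631 (Trim12c), chr7:103937328-103937387 (Trim5), chr17:37147853-37147918 (Trim26) and chr4:46536114-46536173 (Trim14), the genes Trim34a and Trim26 on the plus strand and the others on the minus strand. Trim21 and Trim26 each hold 2 matches that overlap. Over the match and 10 bases on each side, Trim30a and Trim30d were identical and Trim5 and Trim12c differed at 2 of 30 positions. A match is a description of these letters and not a bound site, and 4 genes of the list that were higher (Trim12a, Trim25, Trim56 and Trim6) had none in this window. In the promoter table of RefSeq (GRCm38.p6), which holds 53 of the 68 TRIM genes and places some starts elsewhere, 9 held the core (3.99% of all genes there), with Trim12a and Trim2, an NHL gene that was higher, among them and Trim14, Trim59 and Trim9 not. Other motifs depended on the table. In the Gencode windows the GAS motif TTCNNNGAA was in 6 of 68 promoters (8.82% of all protein-coding promoters), the AP-1 motif TGANTCA in 4 (7.15%), and the ETS motif CCGGAAGT in none (4.35%). In the RefSeq table GAS was in 6 of 53 (9.55% of all genes), AP-1 in 9 of 53 (8.97%), Trim30a, Trim30d and Trim2 included, and ETS in 2, Trim44 and Trim46 (4.31%). Both of the remaining ISRE matches in the family were in genes that were lower in KE, at chr3:68952527-68952586 for Trim59 and chr12:70395062-70395121 for Trim9, and lie over 200 bases before the start.
Trim59: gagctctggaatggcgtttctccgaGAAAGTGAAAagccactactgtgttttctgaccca
Trim9: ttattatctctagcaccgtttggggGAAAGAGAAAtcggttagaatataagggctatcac

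Trim30a, which dampens Toll-like receptor signalling, had 13545, 12709 and 14212 normalized counts in KE and 3274, 3395 and 2457 in NT, a 4.43-fold higher mean (log2FC 2.16, standard error 0.11, adjusted p = 5.5e-08 by limma). Trim30d, its neighbour, had 5487, 5238 and 5717 in KE and 1388, 1374 and 958 in NT (log2FC 2.16, standard error 0.12, adjusted p = 1.4e-07 by limma). Trim34a had 2271, 2281 and 2307 in KE and 598, 645 and 481 in NT (log2FC 2.00, standard error 0.10, adjusted p = 5.7e-08 by limma). In these genes the lowest KE culture was more than 3-fold above the highest NT culture. Trim21, a cytosolic receptor for the Fc part of antibodies, counted 2219, 2133 and 2136 in KE and 630, 701 and 513 in NT (log2FC 1.83, adjusted p = 1.3e-07 by limma). Trim25, the ubiquitin ligase that modifies the RNA sensor RIG-I, counted 6338, 6957 and 6770 in KE and 3076, 3258 and 2819 in NT (log2FC 1.13, adjusted p = 1.9e-07 by limma). Trim12a, a relative of the retroviral restriction factor TRIM5, counted 1350, 1459 and 1436 in KE and from 380 to 544 in NT (log2FC 1.59, adjusted p = 1.1e-06 by limma). The groups did not overlap in any of these 6 genes, and the SD relative to the mean was larger in NT than in KE in each of them. NT replicate 3 was the lowest NT culture in 9 of the 11 called genes of the list. It also had the lowest sum of microglia markers among the NT cultures (55665 against 65983 and 66189), and a link between the 2 was not tested. Leaving NT replicate 3 out changed no call of these 6 genes.

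The smaller rises of the list were in Trim12c, Trim5, Trim6, Trim26 and Trim56. Trim12c had 1662, 1591 and 1600 normalized counts in KE and 882, 909 and 726 in NT (log2FC 0.95, standard error 0.09). Trim5 had 141, 117 and 163 in KE and 113, 64.2 and 71.2 in NT (log2FC 0.79, adjusted p = 0.012 by limma). Trim6, a synthase of unanchored ubiquitin chains in interferon signalling, had 64.0, 49.1 and 47.0 in KE and 32.5, 37.5 and 26.8 in NT (log2FC 0.71, adjusted p = 0.026 by limma). The gap between groups was narrow for both of these low genes. The call of Trim5 was lost without KE replicate 3 (adjusted p = 0.057), and that of Trim6 without KE replicate 1 (0.11), NT replicate 1 (0.053) or NT replicate 3 (0.080), all by limma. Trim26 had 1874, 1976 and 1910 in KE and 1230, 1404 and 1124 in NT (log2FC 0.62, adjusted p = 8.6e-05 by limma). Trim56, which takes part in sensing of foreign DNA and RNA, had 3186, 3341 and 3801 in KE and 2368, 2670 and 2619 in NT (log2FC 0.43, adjusted p = 7.5e-04 by limma). Every KE culture was above every NT culture in both.

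Trim14, Trim30b and Trim30c were tested and not called. Trim14, an adaptor in mitochondrial antiviral signalling, had 127, 102 and 132 normalized counts in KE and 118, 155 and 64.1 in NT (log2FC 0.18, adjusted p = 0.61 by limma). Trim30b had 14.4, 11.2 and 12.5 in KE and 23.5, 9.03 and 9.43 in NT, and Trim30c had 16.3, 18.8 and 25.3 in KE and 20.8, 11.4 and 10.5 in NT (log2FC 0.51, adjusted p = 0.26 by limma). The groups overlapped in all 3 genes, and the NT spread was wide. Trim34b and Trim38 were below the filter. Trim34b was at 6.33, 8.76 and 7.25 in KE and listed at 0 in every NT culture, and Trim38 lay between 0 and 3.61.

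**Figure D2:**
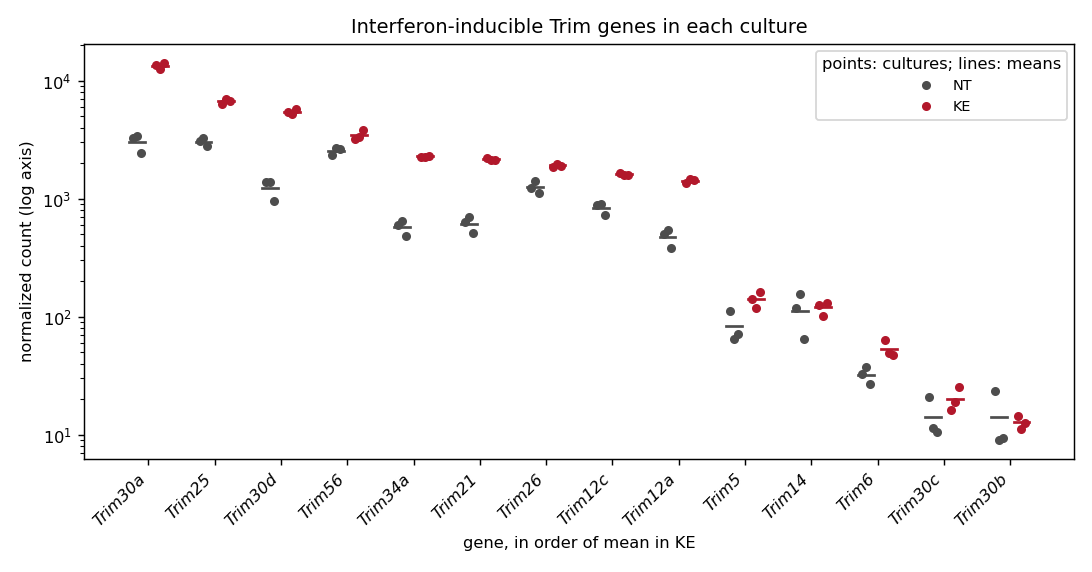
Normalized counts of the 14 tested interferon-inducible Trim genes are plotted on a log axis, with a point for each of the 6 cultures and a line for the mean of each group. In Trim30a the KE cultures lie between 12709 and 14212 and the NT cultures between 2457 and 3395, while the groups overlap in Trim14, Trim30b and Trim30c.

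On chromosome 7, 10 genes of the list are neighbours. Trim6, Trim34a, Trim5, Trim12a, Trim34b, Trim12c, Trim30b, Trim30c, Trim30a and Trim30d follow each other in chr7:103868000-104157107 and are the 10 protein-coding genes of that 289 kb stretch. Of 9 tested, 7 were higher in KE, and the 2 that were not called, Trim30b and Trim30c, are the 2 lowest of the tested genes there and stand between Trim12c and Trim30a. Counting as a run any TRIM genes with gaps of at most 200 kb, 14 of 18 tested genes in runs were higher and none was lower (7 of 9 outside the run of 10, with the chromosome 7 pair Trim21 and Trim68 among them), while 12 of 27 tested genes that stand alone were higher and 7 were lower. In all genes tested, 25.3% were higher and 26.0% were lower. The run of 10 lies wholly on the interferon-inducible list, and Trim21 and Trim26 of other runs are on it too. Standing in a run and being on that list therefore cannot be told apart here. Some genes of a run are similar copies that share reads, so this count is a description. Of the 31-base words in the transcripts of each gene, 50.1% of those of Trim34a and 64.9% of those of Trim34b occur in another gene, as do 55.2% for Trim5 and 50.2% for Trim12c, 21.1% for Trim30a and 13.0% for Trim30d. Salmon divides such reads by a model, so the values of these genes are uncertain. Not all shared words lie within a pair of neighbours, since the gene sharing most with Trim30a is Gm42553 (9.31% of words). Summed as pairs, an alternative chosen after the data were seen, Trim30a and Trim30d gave a log2FC of 2.16, Trim34a and Trim34b 2.01, and Trim5 and Trim12c 0.94. Among TRIM genes that share under 5% of their words, 18 of 33 were higher and 6 were lower, with a median log2FC of 0.28, and among those that share 5% or more, 8 of 12 were higher and 1 was lower, with a median of 0.99. Trim30a, Trim30c, Trim30d, Trim34a, Trim5, Trim12a and Trim12c of the latter are on the interferon-inducible list, so sharing and list cannot be told apart.

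**Figure D3:**
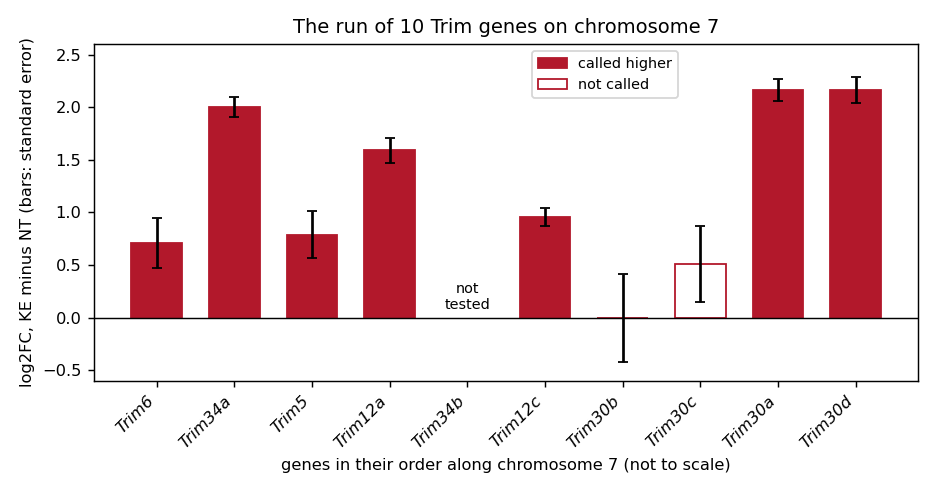
Bars give the log2FC of KE minus NT, with the standard error, for the 10 Trim genes in their order along chromosome 7, spaced evenly. Trim34a, Trim30a and Trim30d reach 2.00 to 2.16, and Trim30b and Trim30c between them are not called.

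Among the other PRY-SPRY TRIMs, 13 of 23 were tested, 7 were higher and 2 were lower, with a median log2FC of 0.33. Trim69 had the largest log2FC of the tested TRIM genes at a low level, with 24.4, 28.8 and 22.6 normalized counts in KE and 0.990, 4.14 and 3.82 in NT (log2FC 2.83, standard error 0.47, adjusted p = 4.5e-04 by limma). It passed the filter through its KE values alone (NT mean 2.98), so its place among the tested genes is a description. With a pseudocount of 5 its log2FC was 1.94, below Trim30a, Trim30d and Trim34a. Trim17, known in neurons for promoting apoptosis, had 47.6, 59.2 and 36.4 in KE and 9.42, 12.8 and 19.97 in NT (log2FC 1.73, standard error 0.33, adjusted p = 0.0012 by limma). Both are separated between groups but low, and 25.7% of the words of Trim17 occur in other genes, chiefly in the histone gene H2ac25, whose exons it overlaps on the same strand. Trim47 had 738, 748 and 684 in KE and 322, 397 and 352 in NT (log2FC 1.02, adjusted p = 7.7e-06 by limma). Trim35, the most abundant gene of this list per kilobase of exon, had 9158, 9287 and 9228 in KE and 6443, 6872 and 6824 in NT (log2FC 0.46, adjusted p = 2.9e-05 by limma). Trim27, a ubiquitin ligase of endosomal sorting, moved the other way. Its counts were 1105, 1210 and 1065 in KE and 1718, 1663 and 1766 in NT (log2FC -0.61, adjusted p = 3.0e-05 by limma). Trim16 was lower as well (log2FC -0.60), and Trim7 (0.99), Trim11 (0.58) and Trim41 (0.29) were higher. The call of Trim41 was lost without KE replicate 1 (adjusted p = 0.087 by limma) or NT replicate 3 (0.071). Trim39, Trim62, Trim65 and Trim68 were not called, with a log2FC of 0.12, -0.16, -0.19 and 0.33.

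The 4 TIF1 TRIMs split. Trim28, the KAP1 corepressor that silences transposable elements through histone H3 lysine 9 methylation, had 6405, 7059 and 6745 normalized counts in KE and 9180, 9594 and 10193 in NT (log2FC -0.52, standard error 0.06, adjusted p = 3.6e-05 by limma). Trim33, a ligase of SMAD4 in TGF-beta signalling, had 1543, 1400 and 1694 in KE and 2209, 2031 and 1881 in NT (log2FC -0.40, adjusted p = 0.0022 by limma). All KE cultures were below all NT cultures in both genes. Trim66 was higher, with 151, 151 and 158 in KE and 95.8, 87.2 and 76.3 in NT (log2FC 0.82, adjusted p = 7.7e-04 by limma). Trim24 was not called (log2FC 0.11). The exons of Trim28 overlap those of Chmp2a on the opposite strand by 2923 bases, and the library kit marks strand. Of 6 partners of TIF1 silencing, 4 were lower and none was higher, where 26.0% of all genes tested were lower and 25.3% higher. The 4 were the heterochromatin proteins Cbx1 (log2FC -0.57), Cbx3 (-0.70) and Cbx5 (-0.65) and the methyltransferase Setdb1 (-0.51). Chd3 (-0.18) and Smad4 (-0.06) were not called. The difference of this short list from all genes was not tested.

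The NHL TRIMs were higher by small amounts. Trim3 had 1083, 1170 and 1092 normalized counts in KE and 923, 864 and 827 in NT (log2FC 0.36, adjusted p = 0.0019 by limma). Trim2 had 3881, 3418 and 4135 in KE and 3282, 3187 and 3398 in NT, and Trim32 had 2070, 2208 and 1993 in KE and 1833, 1864 and 1851 in NT (log2FC 0.21 and 0.18, adjusted p = 0.032 for each by limma). The groups were apart in all 3 genes, by a narrow margin in Trim2. Trim2 was no longer called without KE replicate 1 (adjusted p = 0.095 by limma), KE replicate 3 (0.12), NT replicate 1 (0.075) or NT replicate 2 (0.093), nor Trim32 without any 1 culture except KE replicate 3 (0.061 to 0.094). Trim71, an early developmental NHL gene, lay at 1.81 to 6.25 and was not tested.

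Of the 8 COS-box TRIMs only 4 were tested. Trim9, a brain-enriched ligase of axon branching, was the TRIM gene with the lowest log2FC, at 3476, 3929 and 3788 normalized counts in KE and 6296, 6180 and 6027 in NT (log2FC -0.73, standard error 0.06, adjusted p = 2.4e-06 by limma). Trim46, which organizes microtubules at the start of the axon, rose instead, with 522, 656 and 701 in KE and 441, 435 and 364 in NT (log2FC 0.59, adjusted p = 0.0021 by limma). Both are known from neurons. The neuron markers were mixed, with Map2 (log2FC -0.51) and Stmn2 (-0.58) lower, Nefl (1.73) and Tubb3 (0.43) higher and a median of 0.43, while their sum, mostly Map2, was 6784 to 7177 in KE and 8754 to 9413 in NT. Their part in these values was not tested. Trim36 (log2FC -0.57) and Trim67 (-0.04) were not called, and the muscle genes Trim54, Trim55 and Trim63 stayed between 0 and 12.1 in every culture.

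In the TRIMs with another or no C-terminal domain, 3 of 7 tested genes were higher and 2 were lower. Trim59, a membrane-anchored TRIM linked to proliferation, had 1717, 1536 and 1736 normalized counts in KE and 2807, 2196 and 2766 in NT (log2FC -0.63, adjusted p = 2.2e-04 by limma). Trim37, which limits centriole assembly, had 4108, 3885 and 3917 in KE and 5176, 4935 and 5292 in NT (log2FC -0.37, adjusted p = 2.1e-04 by limma). Trim45 had 318, 279 and 298 in KE and 200, 237 and 176 in NT (log2FC 0.55, adjusted p = 0.0045 by limma). The groups did not overlap in these 3 genes. Trim44, the most abundant per kilobase of this list, had 8384, 7960 and 8657 in KE and 8173, 8155 and 8354 in NT, so that the groups overlapped (log2FC 0.02, standard error 0.05). Trim23 (log2FC 0.30) and Trim8 (0.28) were higher, and Trim13 (0.26) was not called.

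Dividing each normalized count by the length of the gene's merged exons puts the genes on an approximate scale of level. The exons of all annotated transcripts are merged, so a gene with long or many transcripts can appear too low. Trim30a, at 9797 bases, ranks under Trim30d, at 3809 bases, although its mean count is higher. The ranks and shares below depend on these lengths. The family summed to 14829, 14860 and 15160 normalized counts per kilobase in KE and to 10933, 11043 and 10793 in NT. All KE cultures were above all NT cultures. The interferon-inducible list made up 44.1 to 45.3% of that sum in KE and 18.6 to 22.9% in NT. The TIF1 list summed to 1808 ± 65.2 normalized counts per kilobase in KE and 2507 ± 107 in NT (SD, n = 3), which was 11.7 to 12.5% and 22.1 to 24.3% of sums that themselves differ. In NT the levels per kilobase were led by Trim28 at 2239 ± 118 (SD, n = 3), with Trim44 at 1108, Trim35 at 972, Trim59 at 623 and Trim25 at 530. In KE Trim28 was still first at 1562 ± 75.9 (SD, n = 3), and Trim30d at 1439, Trim30a at 1377, Trim35 at 1336 and Trim25 at 1162 followed. In the KE order Trim28 and Trim30d, Trim30d and Trim30a, and Trim30a and Trim35 differed by less than the sum of their SDs, whereas Trim35 and Trim25 differed by more, and Trim28 stood clear of Trim44 in NT. Similar copies share reads, so the level of a single copy is uncertain.

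**Figure D4:**
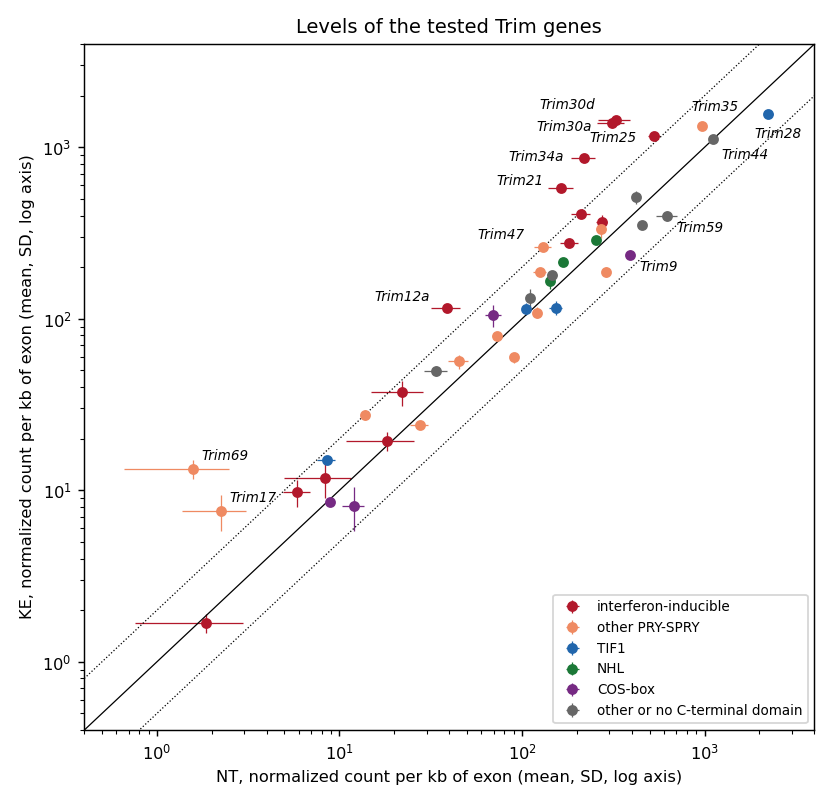
Each of the 45 tested Trim genes is placed by its mean normalized count per kilobase of exon in NT (x axis) and KE (y axis), both log axes, with bars for the SD over 3 cultures and dotted lines at a 2-fold difference. Trim30a, Trim30d, Trim34a, Trim21, Trim12a, Trim25 and Trim47 lie above the upper dotted line with the lower Trim17 and Trim69, and Trim28 and Trim9 lie under the diagonal.

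**Figure D5:**
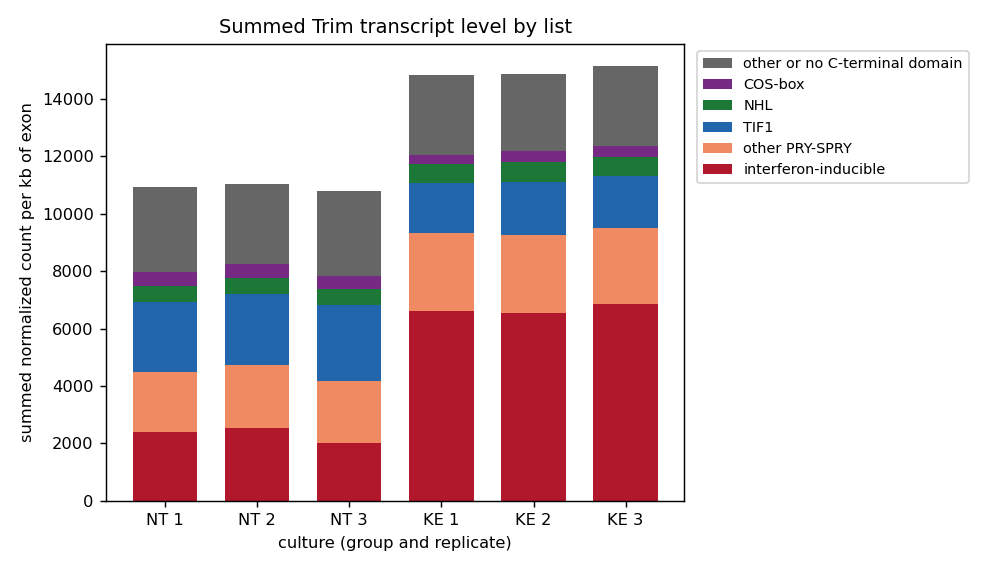
Stacked bars give the summed normalized counts per kilobase of the Trim genes in each culture, divided by list (Trim80, in none of the lists and near 0, is not drawn). The KE bars reach 14829 to 15160 and the NT bars 10793 to 11043, and the interferon-inducible part is 44.1 to 45.3% of the KE bars.

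The 23 genes below the filter included 7 that were listed at 0 in every culture (Trim15, Trim31, Trim42, Trim43b, Trim52, Trim58 and Trim75). Trim72, a membrane repair protein of muscle, had the highest mean over the 6 cultures among the low genes of the other PRY-SPRY list, at 7.90, 8.75 and 5.54 normalized counts in KE and 3.25, 0 and 2.09 in NT. Trim29 lay between 3.82 and 7.24, and Trim80, which is in none of the lists, was at 1.04 or below. Fitted without the filter, 2 of the 16 genes among them with a value above 0 were called, where 7916 of all 25499 genes in that fit were called. Both were higher in KE, namely Trim34b (adjusted p = 1.2e-04 by limma) and Trim72 (0.028).

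Of the genes that TRIM proteins act with, 42.9% of the innate signalling list and 22.2% of the ubiquitin-conjugating list were called. In the TIF1 silencing list 66.7% were called, all of them lower, against 51.3% of all genes tested. Higher in KE were 35.7% of the innate signalling list and 22.2% of the ubiquitin-conjugating list, against 25.3% of all genes tested. The differences between these shares were not tested. Of the TRIM-related genes under other symbols, Pml, the scaffold of nuclear bodies, rose from 2476 ± 138 in NT to 6090 ± 441 normalized counts in KE (SD, n = 3, log2FC 1.30), and Rnf135, a RIG-I ligase like Trim25, rose from 308 ± 33.8 to 1107 ± 36.3 (SD, n = 3, log2FC 1.85). Fsd1 was higher too (log2FC 0.72), and Mid1, Mid2 and Fsd1l were not called. Of 14 innate signalling partners, 5 were higher and 1 was lower. These were the transcription factor Irf7 (log2FC 3.81), the RNA sensors Ifih1 (2.20) and Ddx58, which encodes RIG-I (1.70), the antiviral protein Zc3hav1 (1.11) and the adaptor Mavs (0.23), against the DNA sensing adaptor Sting1 (-0.92). Tbk1, Ikbke, Irf3, Cgas, Tab2, Tab3, Traf3 and Traf6 were not called, with a log2FC from -0.35 to 0.08. Among 9 ubiquitin-conjugating enzymes, Ube2l6, which also carries the interferon-induced modifier ISG15, rose most (log2FC 2.17), Ube2k rose by 0.22, and the other 7 were not called, Ube2n and Ube2v1 of the lysine 63 chain pair included (-0.02 and 0.09).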

How the data were processed

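RNA from 3 KE and 3 NT cultures was sequenced with a stranded mRNA kit. The authors trimmed reads with TrimGalore, aligned them with STAR to GRCm39 with Gencode vM28 and counted with Salmon. The authors deposited the signal used here, gene counts divided by DESeq2 size factors, so the column totals are not the sequencing depth, which was estimated from the most frequent low value. Their methods mention a batch adjustment without naming batches or saying whether the deposited values carry it, and the labels' processing notes list GRCh38. No count test was run, because the low values did not come out as whole reads (77.6% at most, with a tolerance of 0.1), and precision rests on the spread between cultures.

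KE and NT were compared on log2(value + 1) by limma (version 3.58.1, R 4.3.3) with a trended variance and no covariate. Genes under a mean of 10 were not tested, and tests were two-sided. The fit was tested on simulated data. Coordinates, exon lengths, promoters and shared 31-base words come from Gencode vM39 (GRCm39), in which all 68 TRIM genes were found. Every column was mapped to a sample, and no culture was left out. The family and its lists were chosen with earlier results of these data known. Values by culture are given for the tested interferon-inducible TRIMs, called members with an absolute log2FC of at least 1, and in each other list the 3 called members with the smallest adjusted p and the highest per kilobase. Alternatives were other pseudocounts, filters and scalings, no variance trend, a replicate block, leaving out each culture in turn and, added later, sums of similar copies.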

Additional observations from a re-analysis of the deposited data

How the results depend on the processing

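Over the 14 alternatives, 22 to 27 TRIM genes were higher, 7 or 8 were lower, and 10 or 11 of the interferon-inducible list were higher. Leaving out 1 culture gave 22 to 26 higher and 7 or 8 lower TRIM genes, 10 or 11 higher genes of that list and 6792 to 7212 called genes in all, against 7844. With the replicate number as a block, 26 were higher and 7 lower, the same 33 of 33 genes, and 8046 genes were called in all. Same-numbered cultures had correlations of their deviations of 0.059, 0.066 and 0.065, each the largest for its culture, a hint of pairing in the data. None was over 0.1 and the labels name no shared litter or day, so the numbers were not taken as pairs. Of 625 gene comparisons 592 kept their direction and call, 20 lost the call, 6 gained it and 7 changed sign, all in genes that were not called. Trim30b moved from -0.00 to 0.0020 with a pseudocount of 0.5 and to between -0.23 and 0.42 without 1 culture, Trim67 to 0.10 with quantile normalization, Trim44 to between -0.010 and 0.050 and Trim14 to between -0.18 and 0.45 without 1 culture. Calls were also lost with no variance trend for Trim2 (adjusted p = 0.095 by limma), Trim32 (0.061) and Trim41 (0.062), with quantile normalization for Trim2 (0.053) and with no filter for Trim6 (0.061). Calls were gained for Trim13 (without KE replicate 2, 0.031, and quantile normalization, 0.027), Trim68 (without NT replicate 3, 0.033, and quantile normalization, 0.022), Trim36 (without KE replicate 1, 0.023) Trim62 (without KE replicate 2, 0.043) and, with no filter, Trim34b (1.2e-04) and Trim72 (0.028), both below the filter otherwise. The cause was not tested. Trim69 fell to a log2FC of 1.94 with a pseudocount of 5 and ranged up to 3.08. Depth limits the precision of the 23 genes below a mean of 10.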
